A study of Mus musculus with 3 samples.

Results

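The cytochrome P450, UDP-glucuronosyltransferase and cytosolic sulfotransferase genes of mouse stomach corpus organoids were examined, taken by gene symbol: Cyp names with a number, 1 letter and a number, Ugt1 and Ugt2 names, and Sult names, without pseudogenes marked -ps. The rule took 140 genes of the 56691 lines in the deposited table, 100 Cyp, 19 Ugt and 21 Sult. One of the 100, Cyp4x1os, is an antisense transcript and had no count. Cyp51 is not among them. RNA-seq was done on 3 cultures of organoids, epithelial structures grown from tissue cells in a gel matrix, with 1 library in each group and a P5 in every title. All came from the corpus of mice of about 8 weeks with an inducible Cre recombinase at the Mist1 locus (Mist1Cre/ERT2) and a red fluorescent reporter behind a stop cassette (RFPLSL), and all were kept in proliferation medium. The Mist1- and Mist1+ cultures carry a wild-type label. Mice for the other culture, named Gpx4 KO-Mist1+ and called the labelled knockout below, had loxP-flanked Gpx4 alleles (Gpx4F/F) in addition. Mist1 is a factor of secretory cells, among them gastric chief cells. Whether each culture came from 1 mouse or several is not given in the sources used here.

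Cytochromes P450 are heme enzymes that insert 1 oxygen atom into a substrate, drawing electrons from the reductase Por in the endoplasmic reticulum or from ferredoxin in mitochondria. Some oxidise drugs and other foreign compounds; others make or clear steroids, bile acids, vitamin D, retinoic acid and fatty acid signals. Glucuronosyltransferases of the endoplasmic reticulum and sulfotransferases of the cytosol then attach glucuronic acid or sulfate, which makes the product easier to excrete. Liver holds most of this capacity, and surface epithelia such as the gut lining keep a smaller, different set.

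The libraries held 14943918, 16187378 and 16396693 counts for Mist1-, Mist1+ and the labelled knockout, and members took 18600, 16936 and 20504 of them, or 0.124%, 0.105% and 0.125%. Gpx4 itself had 4399, 1998 and 2569 counts in that order, so it was not lower in the labelled knockout than in Mist1+; a count over the whole gene does not check the deleted part, and the label is used only as a name. Of the markers of gastric epithelium, Epcam, Cdh1, Krt8, Krt18, Sox2 and Gata4 were present in all 3 libraries. The chief cell genes Pgc and Cblif were abundant, while Pga5 and Lipf of the same list had no count. Of the parietal cell genes, Atp4b had no count and Atp4a had 58, 103 and 83. Intestinal, endocrine, fibroblast and endothelial lists each summed to under 1 FPKM in every library. With 1 library per group, differences below are between these libraries and were not tested; intervals are 95% and cover counting error only. FPKM scales a count to the gene's exonic length and to the library's total, and is used to compare levels between genes. Fewer cells of a type and less RNA per cell cannot be told apart in such bulk libraries.

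Most of these genes were silent or nearly so. Of the 140 members, 66 had more than 3 counts in at least 1 library and are called detected here, 27 had 1 to 3 counts at most, and 47 had none; of all lines 32.7% passed the same limit. An FPKM of 1 in at least 1 library was reached by 26 members and by 23.6% of all lines. The share detected was thus larger among the 140 members than among all lines, and the share at an FPKM of 1 somewhat smaller. All lines include noncoding transcripts, whereas nearly all members are protein-coding, so this background is unlike the members. By family, 48 of 100 Cyp, 10 of 19 Ugt and 8 of 21 Sult genes were detected, and 18, 3 and 5 reached an FPKM of 1. The 3 libraries were alike in this, with 52, 58 and 55 members above 3 counts in Mist1-, Mist1+ and the labelled knockout. A count of 0 allows up to 3 counts, which for a transcript of 1 kilobase is an FPKM of 0.201, 0.185 and 0.183 in the same order.

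**Figure D1:**
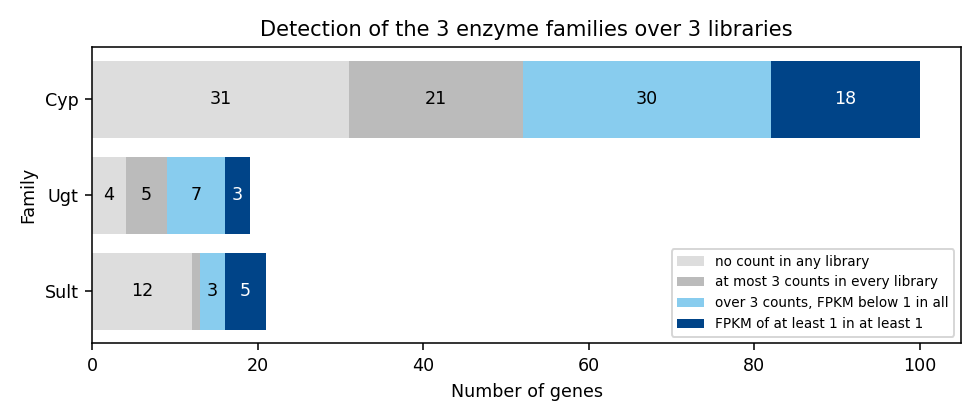
Number of genes (x axis) of each family (y axis) by detection over 3 libraries: no count, at most 3 counts, more than 3 counts with FPKM below 1, and an FPKM of 1 or more in any library. In Cyp 31 genes had no count and 18 reached an FPKM of 1.

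The silent genes included whole branches. None of the 3 Cyp11 genes, which start and finish adrenal steroid synthesis, nor Cyp19a1, the aromatase that makes oestrogens, had a count, and Cyp17a1 and Cyp21a1 had 1 count each. Cyp7a1, the rate-limiting enzyme of bile acid synthesis, had 1 count. Of the 9 Sult2 genes 7 had none, and all 7 were of the Sult2a hydroxysteroid group. Cyp1a1, the classical dioxin-induced P450, had no count in any library, and its neighbour Cyp1a2 had 9, 7 and 8.

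Many members stand in tandem arrays, and within an array few were used. In the GENCODE M21 annotation on GRCm38, 11 stretches held at least 3 members each less than 1 Mb from the next, 103 members in all. Of these 103, 14 reached an FPKM of 1, beside 12 of the 36 placed elsewhere or in pairs. The Cyp2c array, chr19:39007019-40187333, had 14 members, of which Cyp2c65 alone reached an FPKM of 1. The Ugt2 and Sult1 array, chr5:86889767-87591594, had 13, of which Ugt2b34, Ugt2b35, Sult1b1 and Sult1d1 did. In the arrays of Cyp3a (8 genes at chr5:145345279-146113287), Sult2a (8 genes at chr7:13623967-14494230) and Cyp4a, Cyp4b and Cyp4x (11 genes at chr4:115106323-115647723) none did. Near-identical copies share reads, so counts within such arrays are less certain than elsewhere; the share of each named gene's sequence found in other genes is given where it is over 10%.

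Another 40 members were detected below an FPKM of 1, with 4 to 34 counts in their highest library (median 10) and an FPKM of at most 0.79. Several P450s that are abundant in liver were in this range, chosen here after their values were seen. Cyp3a11, a main drug oxidiser of mouse liver, had 34, 34 and 26 counts, and Cyp2c29 had 18, 13 and 10. Others differed more: Cyp2c70 had 14, 7 and 19 counts, and Cyp2f2, with 17, 24 and 6, was 4.05-fold lower in the labelled knockout than in Mist1+ (1.61 to 12.1). The ethanol oxidiser Cyp2e1, somewhat higher, had 68, 59 and 65. Hepatocyte markers were present beside them: Alb, serum albumin, had 1009, 846 and 611 counts, Fgb, a fibrinogen chain, 319, 246 and 244, and Ttr 81, 49 and 46. All 5 markers of that list had counts in every library, Serpina1a the fewest with 34, 10 and 21, and the list summed to 693, 219 and 609 FPKM, mostly Apoa1. Their part in the low P450 counts was not tested.

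A pair of conjugating enzymes carried most of the signal. Sult1c2, a sulfotransferase of the phenol-sulfating family, and Ugt2b34, a glucuronosyltransferase of the 2B group, made up 69.5%, 64.6% and 52.9% of the summed FPKM of all members in Mist1-, Mist1+ and the labelled knockout. By mean FPKM they ranked 262 and 479 among the 13351 genes that reached an FPKM of 1 in any library; the next member, Cyp2s1, ranked 2051. The order of the pair turned over. Sult1c2 led in Mist1- and Mist1+, and Ugt2b34 in the labelled knockout.

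**Figure D2:**
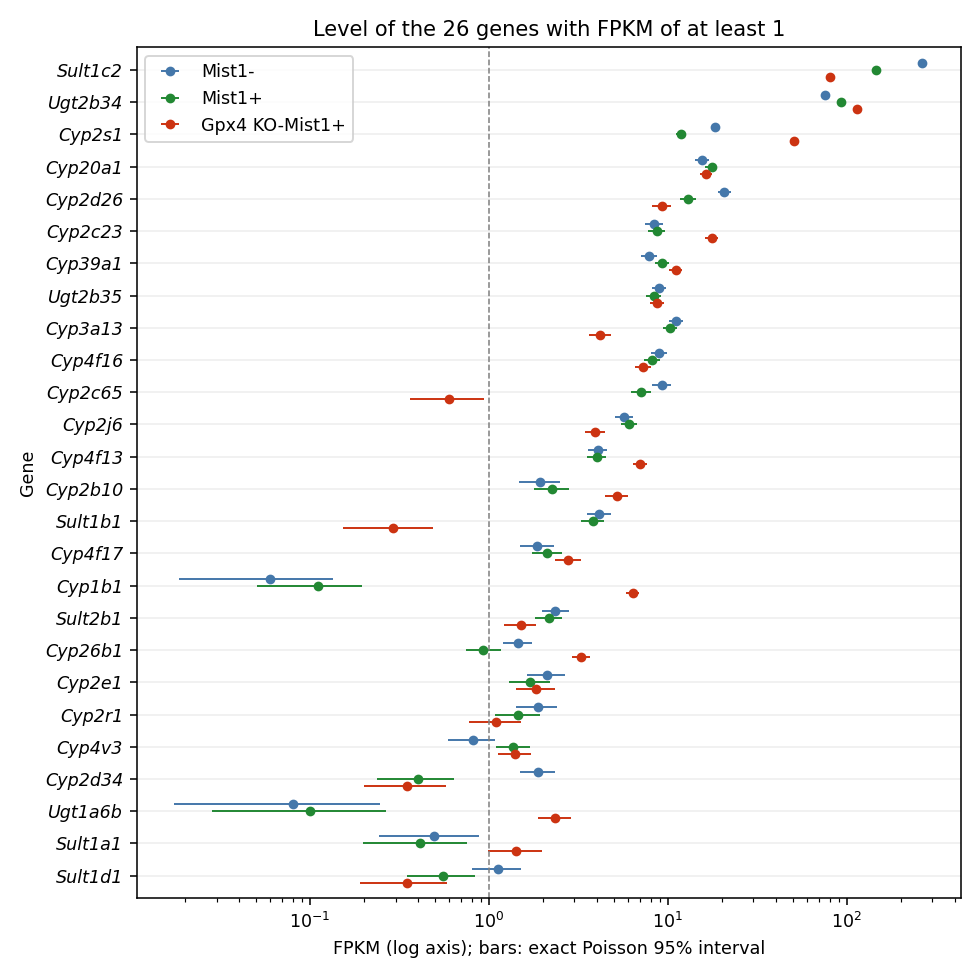
FPKM (x axis, log scale) of the 26 genes that reached an FPKM of 1 (y axis), 1 point per library with the exact Poisson 95% interval; the dashed line is an FPKM of 1. Sult1c2 and Ugt2b34 stand apart at the top, and Cyp1b1, Cyp2c65, Sult1b1 and Ugt1a6b have 1 library far from the other two.

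Among the sulfotransferases, Sult1c2 (ENSMUSG00000023122, chr17:53829637-53846339, minus strand) had 7236, 4361 and 2445 counts, or 262, 146 and 80.8 FPKM. It was thus lower in Mist1+ than in Mist1- by 1.80-fold (1.73 to 1.87), and in the labelled knockout it was at 0.553 times its Mist1+ level (0.526 to 0.582). It made up 96.7%, 95.2% and 95.2% of the summed Sult FPKM, so the family's sum of 271, 153 and 84.9 followed this 1 gene. Of 4 pit cell markers 3 were also lower in the last 2 libraries than in Mist1-, though with a different pattern. The Tff1 trefoil factor was at 657, 90.6 and 87.7 FPKM. Gkn2, a gastrokine, was at 33.5, 5.02 and 1.16, and Gkn1 at 22.2, 2.22 and 1.37. Muc5ac, a mucin, had 35, 24 and 31 counts. Its folds against Mist1- were 0.633 in Mist1+ (0.360 to 1.1) and 0.807 in the labelled knockout (0.481 to 1.35). Both intervals included 1. In that list of 4 all 4 had counts in every library and the summed FPKM was 713, 98 and 90.4; their part in the level of Sult1c2 was not tested.

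Sult1b1 (ENSMUSG00000029269), which sulfates thyroid hormones and small phenols, had 172 counts in Mist1-, 171 in Mist1+ and 13 in the labelled knockout, or 4.14, 3.80 and 0.29 FPKM. The wild-type libraries were alike, and the labelled knockout was 13.3-fold lower than Mist1+ (7.59 to 25.5). Its neighbour Sult1d1, a sulfotransferase of catecholamines, had 41, 22 and 14 counts. Sult1a1, the main phenol sulfotransferase, had 11, 10 and 35 counts, so it was 3.46-fold higher in the labelled knockout than in Mist1+ (1.68 to 7.82), the opposite direction. Sult2b1, which sulfates cholesterol, had 139, 138 and 97 counts, and 0.694 times the Mist1+ level in the labelled knockout (0.530 to 0.906). Sult1c1, the near relative of Sult1c2, had no count, nor did the oestrogen sulfotransferase Sult1e1.

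Among the glucuronosyltransferases, Ugt2b34 (ENSMUSG00000029260, chr5:86889767-86906937, minus strand) had 4882, 6441 and 8050 counts, or 75.8, 92.3 and 114 FPKM. The steps were small, 1.22-fold (1.17 to 1.26) from Mist1- to Mist1+ and 1.23-fold (1.19 to 1.28) from there to the labelled knockout. The gene held 87.2%, 90.1% and 90% of the summed Ugt FPKM. Ugt2b35 in the same array was nearly level at 448, 453 and 479 counts, or 8.92, 8.33 and 8.70 FPKM. Ugt2a3, a few genes away, had 25, 20 and 4 counts, the last again in the labelled knockout.

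Ugt1a6b, which glucuronidates small planar phenols, had 3, 4 and 91 counts, or 0.08, 0.10 and 2.33 FPKM, and the labelled knockout stood 22.5-fold above Mist1+ (8.48 to 84.2). It was the only Ugt1a gene to reach an FPKM of 1. The 9 Ugt1a genes share their last exons, and 60.6% of the exonic bases of Ugt1a6b in M21 also belong to other genes of the locus, while 75.4% of the 75-base stretches of its longest transcript occur in other genes; reads there cannot be placed on 1 gene, so its level is uncertain. Its twin Ugt1a6a had 17, 24 and 31 counts and Ugt1a1, the bilirubin enzyme, 10, 2 and 12; of their 75-base stretches 36.9% and 57.7% occur in other genes, so these counts are uncertain too. Summed over the 9 genes the counts were 32, 33 and 143.

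Among P450s of foreign compounds and steroids, Cyp1b1 and Cyp2s1 were higher in the labelled knockout than in both other libraries, Cyp1b1 by far more. Cyp1b1 (ENSMUSG00000024087, chr17:79701537-79715061, minus strand), which oxidises oestrogens and polycyclic hydrocarbons, had 5 counts in Mist1-, 10 in Mist1+ and 608 in the labelled knockout, or 0.06, 0.11 and 6.35 FPKM. The difference from Mist1+ was 60-fold (32.4 to 126). Cyp2s1 (ENSMUSG00000040703, chr7:25802475-25816913, minus strand), a P450 of surface epithelia, had 1352, 940 and 4101 counts, or 18.3, 11.8 and 50.7 FPKM. In the labelled knockout it was 4.31-fold higher than in Mist1+ (4.01 to 4.63) and 2.8-fold higher than in Mist1- (2.6 to 2.9). It was the third most abundant member in the labelled knockout, where it made up 32.3% of the Cyp FPKM, after 14.3% in Mist1- and 10.4% in Mist1+.

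Cyp1a1, Cyp1b1, Cyp2s1 and the Ugt1a6 genes are textbook targets of the aryl hydrocarbon receptor, a ligand-activated factor that pairs with Arnt and binds the core GCGTG. The windows of 250 bases before the RefSeq start site are printed for the 2 P450s of this set that were high in the labelled knockout, and for Cyp1a1, which had no count, since the 3 differ in level. They are from RefSeq on GRCm38.p6 and lie at chr17:79715062-79715311 on the minus strand for Cyp1b1, chr7:25816526-25816775 on the minus strand for Cyp2s1 and chr9:57697363-57697612 on the plus strand for Cyp1a1. Capitals mark GCGTG on either strand, where the other strand reads CACGC.
Cyp1b1: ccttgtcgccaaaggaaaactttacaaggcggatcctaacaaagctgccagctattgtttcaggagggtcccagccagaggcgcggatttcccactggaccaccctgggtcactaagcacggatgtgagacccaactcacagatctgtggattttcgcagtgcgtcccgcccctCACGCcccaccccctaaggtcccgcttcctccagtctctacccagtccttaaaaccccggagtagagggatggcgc
Cyp2s1: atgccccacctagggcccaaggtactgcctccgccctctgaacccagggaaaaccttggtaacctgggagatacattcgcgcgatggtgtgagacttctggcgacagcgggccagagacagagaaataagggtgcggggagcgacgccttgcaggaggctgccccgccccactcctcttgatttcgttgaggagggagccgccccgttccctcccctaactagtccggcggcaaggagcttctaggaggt
Cyp1a1: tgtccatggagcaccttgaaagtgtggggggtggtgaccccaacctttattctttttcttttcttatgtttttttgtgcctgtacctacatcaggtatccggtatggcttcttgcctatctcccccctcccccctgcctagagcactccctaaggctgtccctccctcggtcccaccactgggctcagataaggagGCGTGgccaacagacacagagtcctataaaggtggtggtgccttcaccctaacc
The Cyp1b1 and the silent Cyp1a1 window each held 1 match and the Cyp2s1 window none. Over all 32851 windows of the same length 28.2% held GCGTG. Of the 26 members that reached an FPKM of 1, 21 had a window. In 8 of those 21 at least 1 window held it (38.1%), Sult1b1 among them. Shares of all windows are per window and those of members per gene. Sult1b1 and Sult2b1 had more than 1 window each, so these shares are unlike in unit. The longer TNGCGTG was in 4.1% of all windows and in 1 of the 21, that of Sult1d1. A related core, ACGTG, was in 16.6% of all windows and in 5 of the 21, and in none of the 3 printed. A match is a string of letters only, and enhancers farther away are not covered.

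The receptor and its feedback genes were measured beside these members. Ahr had 387, 713 and 1606 counts, or 4.2, 7.15 and 15.9 FPKM, 2.22-fold higher in the labelled knockout than in Mist1+ (2.04 to 2.43). From Mist1- to Mist1+ Ahr was 1.70-fold higher. Cyp2s1 in Mist1+ was at 0.642 times its Mist1- level (0.590 to 0.698), and Cyp1a1 had no count in any library. Transcript counts do not measure whether the receptor was bound by a ligand, so the part of Ahr in the members' levels was not tested. Arnt, its partner, was at 6.23, 11.8 and 13.1 FPKM, nearly level between the last 2. Tiparp, a target that dampens the receptor, was at 4.91, 6.69 and 9 FPKM, and the repressor Ahrr had 0, 1 and 10 counts.

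Other P450s of this group went in both directions. Cyp3a13, the member of the drug-oxidising 3A group that is common outside liver, had 489, 493 and 202 counts, or 11.1, 10.3 and 4.17 FPKM, and was 2.47-fold lower there than in Mist1+ (2.09 to 2.93). Cyp2b10, a target of the receptor CAR (Nr1i3), had 61, 77 and 180 counts and was 2.31-fold higher (1.76 to 3.05), while Nr1i3 itself had 9, 9 and 1. Cyp2d26 had 553, 374 and 271 counts, or 20.6, 12.9 and 9.22 FPKM, so each library was lower than the one before in that order. Its array neighbour Cyp2d34 had 78, 18 and 16 counts, low in both Mist1+ cultures and 4.69-fold lower in Mist1+ than in Mist1- (2.79 to 8.33).

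Among P450s of fatty acid signals, members of 1 subfamily went opposite ways. Cyp2c65 (ENSMUSG00000067231, chr19:39061015-39093944, plus strand), an epoxygenase of arachidonic acid known from the gut, had 267, 221 and 19 counts, or 9.27, 7.08 and 0.60 FPKM. The wild-type libraries were close, and the labelled knockout was 11.8-fold lower than Mist1+ (7.37 to 19.9); 11.4% of its sequence is shared with Cyp2c66, which had no count. Cyp2c23 (ENSMUSG00000025197), an epoxygenase as well, had 270, 302 and 620 counts, or 8.37, 8.65 and 17.5 FPKM, and was 2.03-fold higher (1.76 to 2.33). Cyp2c55, next to Cyp2c65 in the array, had 2, 12 and 3 counts.

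The other members of this role that reached an FPKM of 1 had folds below 2 in every comparison. Cyp2j6, another epoxygenase, had 305, 355 and 231 counts, or 5.66, 6.08 and 3.91 FPKM. Cyp4f13, of a group that inactivates leukotrienes by omega-hydroxylation, had 269, 287 and 509 counts and was 1.75-fold higher in the labelled knockout than in Mist1+ (1.51 to 2.03), whereas Cyp4f16 in the same array had 409, 405 and 365 (16.1% of its sequence is shared). Cyp4f17 had 89, 110 and 145 counts and Cyp4v3, a fatty acid hydroxylase, 46, 84 and 87. Ephx2, the soluble epoxide hydrolase that opens the products of these epoxygenases, was at 2.91, 1.09 and 6.70 FPKM, 6.12-fold higher in the labelled knockout than in Mist1+ (4.44 to 8.63).

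Among P450s of vitamins and sterols, Cyp26b1 differed most. It clears retinoic acid, and had 116, 81 and 287 counts, or 1.45, 0.93 and 3.27 FPKM, 3.50-fold higher in the labelled knockout than in Mist1+ (2.73 to 4.53). Its relatives Cyp26a1 and Cyp26c1 had at most 1 count. Stra6, the cell surface receptor that takes up retinol, had 72, 43 and 1099 counts, and the labelled knockout stood 25.2-fold above Mist1+ (18.6 to 35.1) and above Mist1- too. Aldh1a1, which makes retinoic acid, was at 28.1, 30.1 and 18.6 FPKM.

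No sterol or vitamin D enzyme was 2-fold apart on FPKM plus 1 in any of the 3 comparisons, though some differed beyond counting error. Cyp39a1, a hydroxylase of oxysterols, had 357, 457 and 553 counts, or 7.82, 9.25 and 11.1 FPKM, 1.41-fold higher in the labelled knockout than in Mist1- (1.23 to 1.62). Cyp2r1, which carries out the first hydroxylation of vitamin D, had 59, 50 and 38 counts, and the labelled knockout was at 0.587 times the Mist1- level (0.380 to 0.897). Cyp27b1, which activates vitamin D, had 5, 7 and 13. Cyp27a1, a cholesterol hydroxylase, had 15, 10 and 27 counts, 2.67-fold higher in the labelled knockout than in Mist1+ (1.25 to 6.17), and Cyp46a1, another, had 11, 18 and 22. Cyp20a1, a P450 with no agreed substrate, had 530, 648 and 612 counts, or 15.5, 17.5 and 16.3 FPKM. Its fold between Mist1+ and Mist1- was 1.13, while the intervals of its folds for the labelled knockout included 1 against both others.

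**Figure D3:**
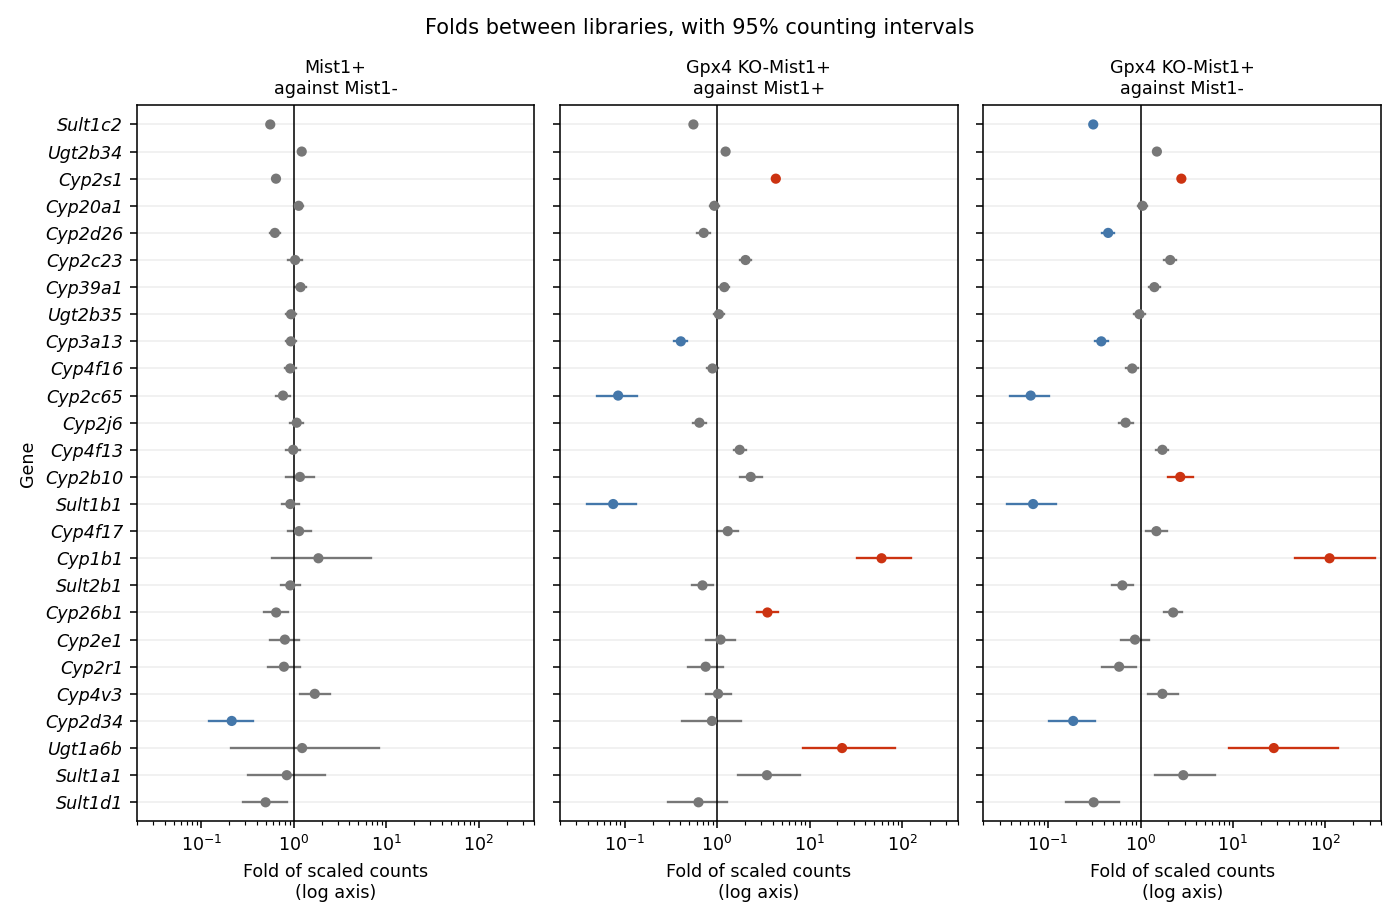
Fold of counts scaled to library totals (x axis, log scale) for the 26 genes (y axis) in 3 comparisons, with 95% counting intervals; red and blue mark genes at least 2-fold higher or lower on FPKM plus 1. Between Mist1+ and Mist1- only Cyp2d34 is marked, while Cyp1b1, Ugt1a6b, Cyp2c65 and Sult1b1 lie far from 1 in both comparisons of the labelled knockout, which share that library.

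Differences were counted on log2 ratios of FPKM plus 1, which shrink those of low genes. The comparison of Mist1+ against Mist1- asks, by its labels, how organoids from cells with and without Mist1 activity differ. Of 26 members 0 were at least 2-fold higher, where all 13351 genes gave 7.88%. At least 2-fold lower was 1 member, Cyp2d34, where all genes gave 5.73%. Both shares are near those of all genes. Cyp2d34 entered the 26 only through Mist1-, at 1.88 FPKM, beside 0.40 in Mist1+ and 0.35 in the labelled knockout. The members' median log2 ratio was -0.09, beside 0.15 for all genes. On FPKM rescaled to a common sum both medians moved up, to 0.19 and 0.47, so the sign of the members' median depends on the scaling. In this pair the ratio went with gene length (Spearman rho 0.49 across the 13351 genes, which are not independent replicates), and members were shorter than the rest, with a median exonic length of 2868 bases beside 3766. With that trend removed no member was at least 2-fold apart and the members' median was 0.00.

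For the library labelled Gpx4 KO-Mist1+ against Mist1+, which by its label asks what loss of Gpx4 does, 4 of 26 members were at least 2-fold higher, with 4.81% over all genes: Cyp1b1, Cyp2s1, Ugt1a6b and Cyp26b1. Another 3 were at least 2-fold lower, with 2.74% over all genes: Cyp2c65, Sult1b1 and Cyp3a13. The log2 ratios were 2.73, 2.02, 1.60 and 1.15, and -2.34, -1.90 and -1.13. Cyp1b1 and Ugt1a6b entered the 26 only through the labelled knockout, the library in which they were high. Their place in this count thus depends in part on the filter, which was the same for all genes. The members' median was 0.04, beside -0.09 for all genes, so the list spread in both directions with no common shift. Across genes this ratio hardly went with length (rho -0.02). With a pseudocount of 5 only Cyp1b1, Cyp2s1 and Cyp2c65 still passed 2-fold. Among markers of other cells, 1 of 5 immune and 1 of 5 squamous genes passed 2-fold too, with the labelled knockout above Mist1+, as did 1 of 5 hepatocyte and 1 of 2 mucous neck genes, while 1 of 4 pit genes, Gkn2, was lower. The former were Cd68, with 82, 103 and 503 counts, and Krt4, with 49, 34 and 332, and the latter pair Apoa1, at 652, 190 and 586 FPKM, and Tff2, the mucous neck trefoil factor, at 178, 52.5 and 111. The other mucous neck gene, Muc6, was at 5.71, 20 and 20.6 FPKM, and that list summed to 184, 72.4 and 131. The summed level of the immune list was 4.51, 5.28 and 24.4 FPKM and that of the squamous list 1.58, 1.05 and 9.59, while the defining genes Cd3e and Trp63 had no count, Ptprc 1, 1 and 0 and Krt5 0, 0 and 1. Their part in the members' differences was not tested.

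Against Mist1-, the same library had 4 of 26 members at least 2-fold higher, with 11.6% over all genes, and 6 lower, with 8.56%. The higher were Cyp1b1, Ugt1a6b, Cyp2s1 and Cyp2b10, and the lower Cyp2c65, Sult1b1, Sult1c2, Cyp3a13, Cyp2d34 and Cyp2d26. Of these, Cyp1b1, Ugt1a6b and Cyp2d34 entered the 26 only through the library in which they were high. Since both comparisons use the labelled knockout, they are not independent. Sult1c2 was 3.25-fold lower than in Mist1-, and Cyp1b1 was 111-fold higher (47.2 to 343), a ratio that rests on 5 counts. The members' median was 0.02, beside 0.09 for all genes. On FPKM rescaled to a common sum the members split into 8 higher and 5 lower, so which direction held more of them depends on the scaling.

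The partners of these enzymes were taken from lists of electron donors, heme enzymes, receptors, cosubstrate supply and export pumps. Transcripts of the electron donors were present in all 3 libraries. Of 8 donors and helpers in the endoplasmic reticulum that reached an FPKM of 1, none was 2-fold apart on FPKM plus 1 between the labelled knockout and Mist1+, where 4.81% of all genes were higher and 2.74% lower, and 1, Cyb5a, was lower than in Mist1-. Por, the reductase, was the highest of them by ratio, at 43.9, 38.4 and 62.4 FPKM, 1.62-fold (1.55 to 1.71). Cyb5a, cytochrome b5, was at 98.1, 49.8 and 48.1 FPKM, low in Mist1+ and the labelled knockout and 2.04-fold lower in the latter than in Mist1- (1.94 to 2.14). The mitochondrial donors Fdx1 and Fdxr were at 6.79 to 9.98 and 2.43 to 2.77 FPKM. Of 12 heme genes Hmox1, which breaks heme down, was the 1 at least 2-fold apart on FPKM plus 1 between the labelled knockout and Mist1+, at 13.1, 7.09 and 19.1 FPKM. In scaled counts Uros, a heme synthesis enzyme with 334, 347 and 166 counts, was 2.12-fold lower (1.75 to 2.56).

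Transcripts for the supply of both cosubstrates were present in all 3 libraries. Ugdh, which makes UDP-glucuronic acid, was at 90, 76 and 74 FPKM and Ugp2, one step earlier, at 145, 133 and 128. Papss1 and Papss2, which make the sulfate donor PAPS, were at 23.9, 29.9 and 23.5 and at 6.91, 8.28 and 10.5 FPKM. Of the 5 genes listed for UDP-glucuronic acid, Gusb and Slc35b1 were included without a test that they supply it. Between the labelled knockout and Mist1+, 4.81% of all genes were at least 2-fold higher on FPKM plus 1 and 2.74% lower. None of the 5, and none of the 7 for PAPS, was 2-fold apart on that scale, which is near those shares for so few genes. Slc35b1, a transporter of the endoplasmic reticulum, was just short of 2-fold, with 1250, 1031 and 509 counts, 2.05-fold lower in scaled counts (1.84 to 2.29). Against Mist1- it was past 2-fold, 2.69-fold lower (2.43 to 2.99).

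Several receptors of foreign compounds and bile acids were low. Nr1i2, the receptor PXR, had 22, 24 and 8 counts, 3.04-fold lower in the labelled knockout than in Mist1+ (1.32 to 7.83), and none of Nr1i2, Nr1i3 and Nr1h4 reached an FPKM of 1. Hnf4a, a liver and gut factor that drives many P450 genes, was at 39, 53.8 and 47.9 FPKM. Of 10 receptor genes that reached an FPKM of 1, in the labelled knockout Ahr was the 1 at least 2-fold above Mist1+ on FPKM plus 1 and none was below, beside 4.81% and 2.74% of all genes. That scale holds back low genes: Nr1h3, the oxysterol receptor LXR alpha, had 40, 37 and 12 counts and was 3.12-fold lower in scaled counts (1.59 to 6.58).

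Most of the export pumps that reached an FPKM of 1 were higher in the labelled knockout than in Mist1-. Of 5 that reached an FPKM of 1, 4 were at least 2-fold higher on FPKM plus 1 than in Mist1-, beside 11.6% of all genes, and 1 than in Mist1+, beside 4.81%. The latter was Abcc5, with 686, 1013 and 3101 counts. Abcc3, which exports glucuronides, was the most abundant, at 29.7, 38.7 and 65.3 FPKM, and Abcc1 and Abcc4 were at 4.08, 7.61 and 12.5 and at 9.24, 14.8 and 21.1. The list's median log2 ratio was 1.11 against Mist1- and 0.74 against Mist1+, beside 0.09 and -0.09 for all genes. Exonic length goes with the ratio against Mist1- (rho 0.39). Pumps below an FPKM of 1 went both ways. Abcg2, which exports sulfates, had 43, 76 and 22 counts, 3.5-fold lower in the labelled knockout than in Mist1+ (2.15 to 5.91). Abcc2 had 8, 11 and 6 counts. Abcb1a had 3, 8 and 16, 4.86-fold higher in the labelled knockout than in Mist1- (1.39 to 26). Among 11 other detoxifying enzymes Ephx2 was the 1 at least 2-fold higher than in Mist1+ on FPKM plus 1. In scaled counts Nqo1, a quinone reductase at 13.7, 4.18 and 9.03 FPKM, was 2.16-fold higher (1.71 to 2.75), and Aox3, an aldehyde oxidase with 80, 96 and 202 counts, 2.08-fold (1.62 to 2.68). Ephx1, the microsomal epoxide hydrolase, was at 200, 129 and 204 FPKM.

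**Figure D4:**
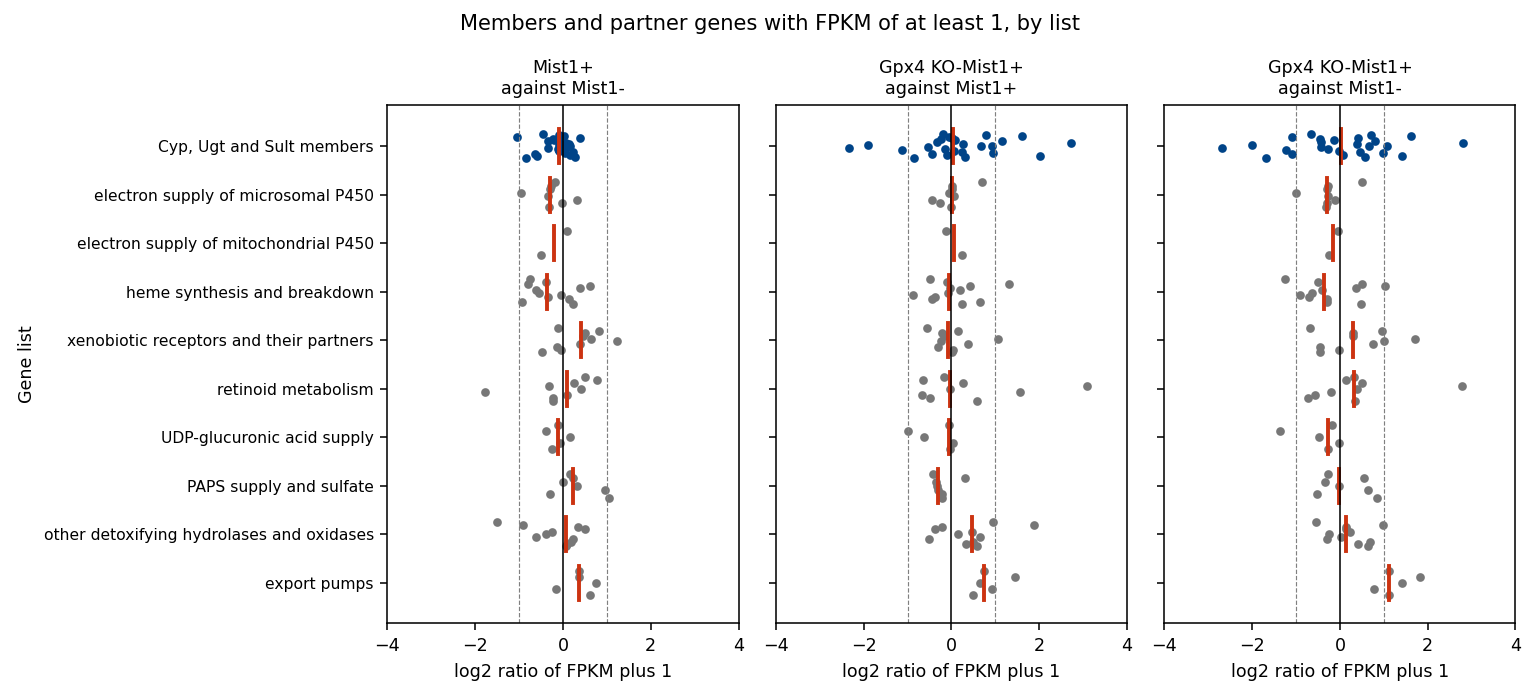
Log2 ratio of FPKM plus 1 (x axis) for each gene that reached an FPKM of 1, among the members and in 9 partner lists (y axis), for 3 comparisons; red bars are list medians and dashed lines a 2-fold difference. Members spread widely around 0 in both comparisons of the labelled knockout, while donors and cosubstrate genes stay mostly within 2-fold.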

How the data were processed

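RNA from 3 mouse organoid cultures was sequenced, 1 library per group. Per the submitters' processing notes, cutadapt 1.9.1, HISAT2 2.2.1, HTSeq 0.6.1 and build GRCm38.p5 were used; the strand setting is not given in the sources used here. The deposited table gives whole-number counts per gene, per the file headers, and FPKM that the authors derived from them; recomputed FPKM deviated by at most 2.77%, 1.34% and 1.59% over genes with at least 50 counts. Lines without a symbol held 0.233%, 0.298% and 0.177% of the counts and stayed in the totals. Start and end in the table equalled those of GENCODE M21 for 2.83% of 52073 shared identifiers, so coordinates are those of M21, which holds 139 of the 140 members. Promoter windows came from RefSeq and matched 111 members.

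Folds are ratios of counts scaled to library totals, with exact binomial 95% intervals; levels have exact Poisson intervals. Differences were counted at 2-fold on FPKM plus 1 among genes that reached an FPKM of 1 in any library. Library sizes of 14943918, 16187378 and 16396693 counts limit precision. Interval and ratio code was tested on simulated data. Reads shared between genes were gauged from 75-base stretches of M21 transcripts. Alternatives were other pseudocounts, filters, cutoffs and scalings, and removal of the trend with length. No test between groups was run, because no group has a replicate. Members that reached an FPKM of 1 are all named; the 15 most abundant and those 2-fold apart are given most fully. Members and lists were chosen with earlier results of these data known. One gene of the partner lists is not reported here. The work was done in Python 3.11.15 with scipy 1.17.1 for intervals, statsmodels 0.14.6 for the length trend, pandas 2.3.3, numpy 2.4.6 and, for the plots, matplotlib 3.10.9.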

Additional observations from a re-analysis of the deposited data

How the results depend on the processing

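No paired analysis was possible because each group holds 1 library, and no library could be left out for the same reason. The number of members at an FPKM of at least 1 was 26, beside 66 above 3 counts. For Mist1+ against Mist1-, where 1 member was lower, the number became 0 with a pseudocount of 5, an FPKM filter of 5, the length trend removed (lowess fraction 0.3) or a cutoff of 4-fold, 2 after median ratio scaling, and 4 at 1.5-fold. For the labelled knockout against Mist1+, the 4 higher members became 7 with a pseudocount of 0.1, 2 with a pseudocount of 5, a filter of 5 or a cutoff of 4-fold, and 8 at 1.5-fold; the 3 lower became 1 with a pseudocount of 5 or at 4-fold. Against Mist1-, the 4 higher became 7 with a pseudocount of 0.1, 8 on TPM or at 1.5-fold, 2 with a pseudocount of 5 and 1 at 4-fold; the 6 lower became 2 with a pseudocount of 5 and 1 at 4-fold. The cause of each change was not tested, beyond the smaller weight of low genes under a larger pseudocount and the fewer genes under a stricter filter. Of the 1, 7 and 10 members at least 2-fold apart in the 3 comparisons none changed sign under any alternative. Of all 26 members 15 did for Mist1+ against Mist1- and 3 in each of the others. Other pseudocounts, filters and cutoffs cannot change a sign, so only rescaling or removal of the length trend could. TPM moved the median of all genes for Mist1+ against Mist1- from 0.15 to 0.47. Over all genes the split of higher to lower for that pair was 1052 to 765, and 3101 to 510 on TPM and 642 to 1219 after median ratio scaling; for the labelled knockout against Mist1- it was 1553 to 1143, 3223 to 797 and 1275 to 1505. Depth limits members of few counts: the 27 with 1 to 3 counts cannot be told from 0.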

Other observations

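Relatives of these families that the symbols leave out were partly abundant. Cyp51, the P450 of cholesterol synthesis, had 9126, 7620 and 6416 counts in Mist1-, Mist1+ and the labelled knockout, or 138, 107 and 88.6 FPKM, more than any Cyp member in each library. Ugt8a, which makes galactosylceramide, had 381, 961 and 407 counts, or 5.62, 13.1 and 5.47 FPKM, so Mist1+ was the high library and the others were alike. The protein-tyrosine sulfotransferases Tpst1 and Tpst2 of the Golgi were at 4.10 to 6.86 and 5.73 to 6.80 FPKM. Prostacyclin synthase, Ptgis, had no count, and thromboxane synthase, Tbxas1, had 8 to 11.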
